A study of Homo sapiens with 12 samples.

Results

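The genes described here are 38 human genes of the ATF4 programme and of amino acid supply, out of 26464 genes used from the deposited tables. They were chosen by symbol with earlier results of these data known, so their counts beside all genes describe and do not test the list. Each is represented by the transcript model that drew most fragments in the 12 libraries together. They comprise 8 transcription factors, 7 genes of feedback and signalling, 3 genes of secreted proteins or receptors, 7 enzymes of amino acid synthesis, 3 enzymes of mitochondrial one-carbon metabolism, 8 amino acid carriers and their partners, and 2 further genes, XPOT and TUBE1. All 38 were among the 15683 genes that passed the expression filter and were tested. Of these, 33 had at least 50 fragments in every library, while CHAC1, GDF15, VLDLR, CTH and ALDH1L2 fell below that in at least 1.

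The series asks what the RNA-binding proteins LARP4A (gene symbol LARP4) and LARP4B do in tumour cells, in PC3, a line from a prostate adenocarcinoma, and MG63, a line from an osteosarcoma. Cells of both lines, wild type per the labels, were transfected by lipid reagent with 10 nM of siRNA that was non-targeting (siControl), against LARP4A (siLARP4A) or against LARP4B (siLARP4B). Poly(A) RNA was taken 72 h later, with 2 biological replicates in each of the 6 groups per the design text, so every group including siControl had been transfected. PC3 was grown in RPMI 1640 and MG63 in Alpha-MEM, both with 10% serum, so line and medium cannot be told apart.

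ATF4 is the transcription factor at the centre of the integrated stress response. Kinases that sense missing amino acids, unfolded protein, haem deficiency or double-stranded RNA phosphorylate eIF2alpha, which slows translation in general while the ATF4 mRNA is translated more. ATF4 then pairs with C/EBP family factors at composite elements and raises genes for amino acid synthesis, amino acid uptake, tRNA charging and feedback on the response itself. The level of ATF4 mRNA is therefore 1 layer of its control, and protein was not measured in these data.

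Library totals ran from 16950119 to 24864977 fragments. LARP4 was at 12.7% of its siControl level in PC3 with siLARP4A and at 25.8% in MG63. LARP4B was at 18.4% in PC3 with siLARP4B and at 30.9% in MG63, so each targeted gene was lowered under its own label, and LARP4 was 0.43 higher on the log2 scale in MG63 with siLARP4B. PC3 carried KRT8, KRT18, EPCAM and CDH1, with the prostate gene KLK3 at no more than 0.031 FPKM, fragments scaled for model length and library total, in any library. MG63 carried SPARC, COL1A1, COL1A2 and VIM above 379 FPKM in each library, with the osteoblast factor SP7 at no more than 0.072. In MG63 with siLARP4A COL1A1 went from 744 and 745 to 1337 and 1295 FPKM, COL1A2 from 458 and 474 to 660 and 634, VIM from 2981 and 2964 to 2493 and 2372, and SPARC from 720.1 and 747 to 688 and 654. The summed level of the 8 osteoblast and mesenchymal markers in MG63 was 4910 to 4938 with siControl, 4963 to 5186 with siLARP4A and 4553 to 4947 with siLARP4B. The summed level of KRT8, KRT18, EPCAM and CDH1 in PC3 was 495 to 498 FPKM with siControl. It was 616 to 640 with siLARP4A and 523 to 533 with siLARP4B, most of it KRT8 and KRT18. EPCAM in PC3 was 25.3 and 24.9 FPKM with siControl, 19.8 and 18.6 with siLARP4A and 21.1 and 20.9 with siLARP4B. CDH1 was 3.665 and 3.23 FPKM with siControl and 3.777 and 3.286 with siLARP4A. Both measured endothelial genes, PECAM1 and CDH5, summed in MG63 to 3.73 to 4.05 FPKM with siControl, 5.95 to 6.79 with siLARP4A and 2.24 to 2.62 with siLARP4B, nearly all of it CDH5. The part of these marker shifts in the results below was not tested. In bulk RNA, fewer cells of a kind and less RNA per cell cannot be told apart.

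The composite C/EBP-ATF element through which ATF4 acts was searched for as the letters TGATGNAA, on both strands, in RefSeq promoter windows of GRCh38.p14 that run from 250 bases before to 50 bases after a start. Of the 31 members with an entry, 9 held the letters, or 29%, against 4.46% of all 27305 genes in the table. The members were chosen as genes of the ATF4 programme, so this excess is no independent result. The 31 members also had 48 windows to search, against 35116 windows for the 27305 genes. The windows below are shown because they belong to genes whose changes are described next, with the 8 matching bases in capitals and 10 bases on each side, written 5′ to 3′ on the strand that carries the match.
ASNS: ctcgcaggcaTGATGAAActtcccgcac
CHAC1: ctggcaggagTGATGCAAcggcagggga
JDP2: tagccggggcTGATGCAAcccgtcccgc
CEBPG: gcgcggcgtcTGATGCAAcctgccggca
SLC1A4: cggctggagaTGATGCAAacgggagccg
SLC1A5: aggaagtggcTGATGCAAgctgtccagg
ATF3: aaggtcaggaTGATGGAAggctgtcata

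These windows lie at chr7:97872459-97872486 (ASNS, minus strand gene), chr15:40953252-40953279 (CHAC1), chr14:75427996-75428023 (JDP2), chr19:33374061-33374088 (CEBPG), chr2:64989382-64989409 (SLC1A4), chr19:46784894-46784921 (SLC1A5, minus strand gene) and chr1:212565206-212565233 (ATF3). The element ends 61 bases before the RefSeq start of ASNS and 9 bases before that of JDP2, and in SLC1A4 it runs across the start. In CHAC1 and SLC1A4 the element lies on the strand opposite to the gene. The starts used for ATF3 and SLC1A5 are 43354 and 3780 bases away from the start of the model counted here. SLC3A2 and SLC7A1 hold the letters after their starts. A match describes the letters and does not show binding. With siLARP4A in MG63 9 of the 9 members with the letters and 14 of the 22 with an entry and no match passed the threshold higher than siControl. Of all genes tested 13.3% did. Lower were 0 and 1, against 13.5% of all genes. With siLARP4A in PC3 3 of 9 were higher and 2 lower with the letters, and 9 of 22 and 5 of 22 without. The shares of all genes there were 19.5% higher and 16.9% lower. With siLARP4B in PC3 5 of 9 and 10 of 22 were higher and 2 and 3 lower, against 24.8% and 20.9% of all genes. In MG63 with siLARP4B 4 of 9 and 5 of 22 were higher and 2 and 5 lower, against 18.0% and 16.9%. No test was made of these counts.

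ATF4 itself (chr22:39520559-39522686) is given first, in every library. In PC3 it stood at 112 and 121 FPKM with siControl, 103 and 112 with siLARP4A, and 127 and 125 with siLARP4B. In MG63 it stood at 186 and 191 with siControl, 197 and 200 with siLARP4A, and 172 and 162 with siLARP4B. The siLARP4A libraries did not lie apart from siControl in PC3, and in MG63 they lay just above. The log2 fold changes, given with their SE throughout, were -0.10 ± 0.049 with siLARP4A in PC3 (edgeR adjusted p = 0.11), 0.11 ± 0.049 with siLARP4B in PC3 (adjusted p = 0.078) and 0.07 ± 0.047 with siLARP4A in MG63 (adjusted p = 0.29). With siLARP4B in MG63 it fell by 0.16 ± 0.047 (adjusted p = 0.013). That call was lost, at adjusted p values of 0.059, 0.11 and 0.16, without MG63 siControl replicate 1, MG63 siControl replicate 2 or MG63 siLARP4B replicate 2.

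**Figure D1:**
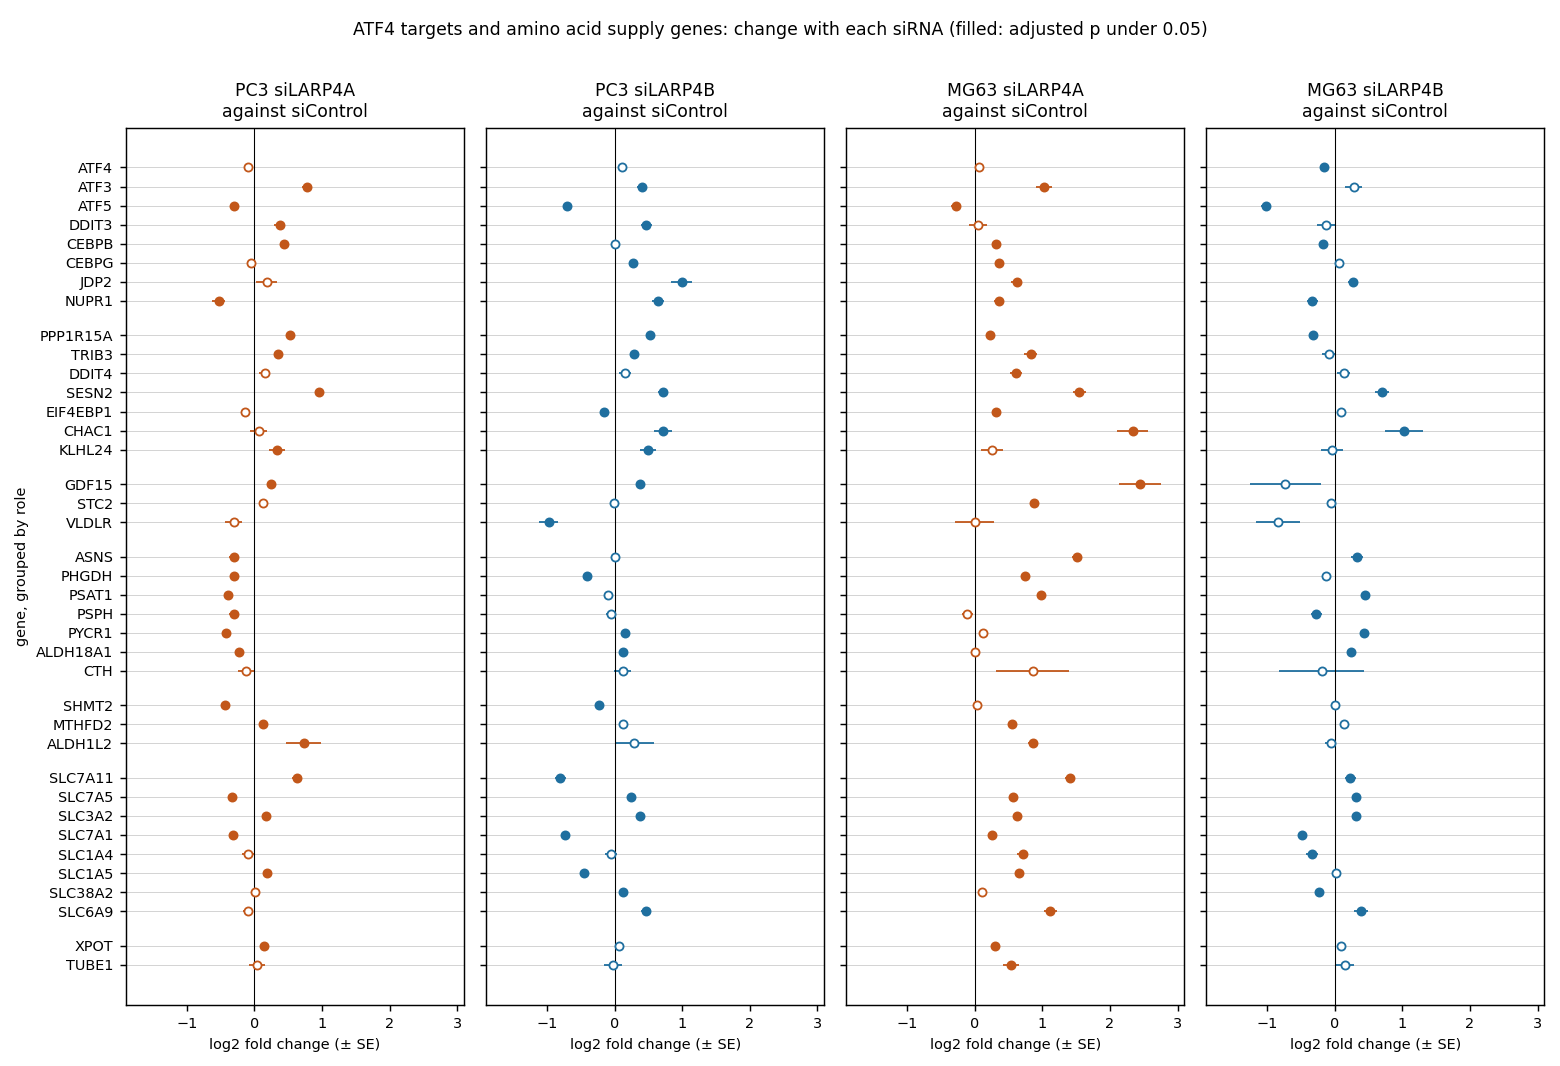
Log2 fold change against siControl (x axis, bars show 1 SE) of the 38 genes, ordered by role, in PC3 and MG63 with each siRNA; filled points passed an adjusted p of 0.05. With siLARP4A in MG63 27 genes are filled to the right of 0, ATF4 stays near 0 in each panel, and the enzymes of amino acid synthesis lie left of 0 in PC3 with siLARP4A.

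With siLARP4A in MG63, genes of every role rose. Higher than in siControl were 3 of 7 enzymes of amino acid synthesis (ASNS, PHGDH and PSAT1), 7 of 8 amino acid carriers, 6 of 7 feedback and signalling genes and the cytokine gene GDF15. Of the 38 genes, 27 passed the threshold higher and 1, ATF5, passed it lower, against 13.3% of all genes tested higher and 13.5% lower. The median log2 fold change of the 38 was 0.56, against 0.00 over all genes tested. ATF5 did not pass without MG63 siControl replicate 2 or without MG63 siLARP4A replicate 2, which left 0 genes lower, and PPP1R15A passed in 11 of 12 alternatives.

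Among the enzymes of amino acid synthesis, ASNS, which makes asparagine (chr7:97852117-97872542), went from 9.17 and 9.04 FPKM with siControl to 25.5 and 26.2 with siLARP4A in MG63. Both siLARP4A libraries stood far above both siControl libraries, and the log2 fold change was 1.51 ± 0.077 (adjusted p = 5.6e-12). ASNS overlaps a read-through gene on its own strand, so some of its fragments may be shared. PSAT1, the aminotransferase of serine synthesis (chr9:78297125-78330093), went from 28.0 and 28.4 FPKM to 52.8 and 58.6, a log2 fold change of 0.98 ± 0.059 (adjusted p = 7e-11). PHGDH, the dehydrogenase that opens serine synthesis, went from 125 and 130 FPKM to 212 and 219, a log2 fold change of 0.75. Its groups did not overlap either. The phosphatase that closes the same route, PSPH, and both proline enzymes, PYCR1 and ALDH18A1, did not pass the threshold, with log2 fold changes of -0.11, 0.13 and 0.00. CTH, which makes cysteine, had 10 or fewer fragments in each MG63 library and passed the threshold with no siRNA in either line.

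Of the 8 amino acid carriers and partners among the members, 7 passed the threshold higher in MG63 with siLARP4A. SLC7A11, the cystine and glutamate exchanger (chr4:138164097-138242349), went from 4.74 and 5.10 FPKM to 13.4 and 12.8. The siLARP4A libraries were both well above siControl, with a log2 fold change of 1.41 ± 0.079 (adjusted p = 2.8e-11). SLC6A9, a glycine carrier (chr1:43996483-44031462), went from 3.0 and 3.17 FPKM to 6.68 and 6.70, a log2 fold change of 1.12 ± 0.097 (adjusted p = 1.6e-08). The remaining carriers that rose were SLC1A4 (log2 fold change 0.71), SLC1A5, which carries glutamine (0.65), SLC3A2, the heavy chain partner of the SLC7 carriers (0.63), SLC7A5, the large neutral amino acid carrier LAT1 (0.56), and SLC7A1, which carries cationic amino acids (0.25). SLC38A2 was at 0.11 and did not pass.

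Of the feedback and signalling genes, 6 of 7 rose in MG63 with siLARP4A. SESN2, a leucine sensor that restrains mTORC1 (chr1:28259518-28282491), went from 2.68 and 2.63 FPKM to 8.08 and 7.50, a log2 fold change of 1.55 ± 0.091 (adjusted p = 4.8e-11). CHAC1, which degrades glutathione (chr15:40953471-40956512), went from 0.509 and 0.62 FPKM to 2.71 and 3.05, a log2 fold change of 2.34 ± 0.23 (adjusted p = 1.1e-07). Its siControl values rest on 14 and 18 fragments and its siLARP4A values on 72 and 86, so the fold is less precise than for the genes above. The pseudokinase gene TRIB3, which restrains ATF4 activity, had a log2 fold change of 0.83, the mTORC1 inhibitor DDIT4 of 0.61, the translation inhibitor EIF4EBP1 of 0.32, and PPP1R15A, the regulator that brings phosphatase to eIF2alpha, of 0.23. KLHL24 was at 0.26 and did not pass.

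Of the transcription factors, 5 of 8 rose in MG63 with siLARP4A. ATF3, a stress-induced factor (chr1:212608761-212620774), went from 2.36 and 2.49 FPKM to 5.24 and 4.59, a log2 fold change of 1.02 ± 0.12 (adjusted p = 1e-06). JDP2, related to ATF3, NUPR1, a small stress-induced nuclear protein, and the ATF4 partners CEBPG and CEBPB rose by 0.62, 0.36, 0.36 and 0.32 on the log2 scale. DDIT3, which encodes CHOP and is a marker of prolonged stress, was at 6.57 and 5.78 FPKM with siControl and 6.32 and 6.45 with siLARP4A. Its groups overlapped, and its log2 fold change of 0.05 did not pass. ATF5, a factor under the same kind of translational control as ATF4, fell by 0.28.

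GDF15, a secreted stress cytokine (chr19:18386158-18389176), went from 0.414 and 0.393 FPKM with siControl to 2.58 and 1.89 with siLARP4A in MG63. The log2 fold change was 2.45 ± 0.31 (adjusted p = 3.5e-06), on 9 fragments in each siControl library and 54 and 42 in the siLARP4A libraries. STC2, a secreted glycoprotein, rose by 0.88, while the lipoprotein receptor VLDLR was at 0.00. In the mitochondrial one-carbon pathway ALDH1L2 rose by 0.86 and MTHFD2 by 0.55, and SHMT2, which turns serine into glycine, was at 0.03. XPOT, the exporter of tRNA from the nucleus, rose by 0.30 and TUBE1, epsilon tubulin, by 0.54.

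In PC3 the same siRNA moved the members in both directions. Of the enzymes of amino acid synthesis 6 of 7 were lower, of the feedback and signalling genes 4 of 7 were higher and none lower, and of the transcription factors 3 of 8 were higher and 2 lower. Of the 38 genes, 14 passed higher and 11 lower under the main scaling, and 12 and 13 under DESeq2 size factors, so which direction held more members depended on the scaling. Over all genes tested 19.5% passed higher and 16.9% lower. The median log2 fold change of the 38 was 0.02, against 0.03 over all genes. The number higher was 9 when PC3 siControl replicate 2 was read from its deduplicated table, 9 by limma on log2(FPKM + 1) and 9 when PC3 was fitted alone.

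SESN2 showed the largest rise among the members in PC3 with siLARP4A, from 7.16 and 7.51 FPKM to 13.8 and 14.4. The log2 fold change was 0.96 ± 0.072 (adjusted p = 8.9e-10), and the groups lay far apart. ATF3 went from 12.4 and 11.9 FPKM to 20.8 and 20.4, a log2 fold change of 0.78 ± 0.074 (adjusted p = 3.5e-08). SLC7A11 went from 9.25 and 9.94 FPKM to 16.0 and 13.3, a log2 fold change of 0.63 ± 0.073 (adjusted p = 5.8e-07). The siLARP4A libraries differed more from each other than the siControl libraries did, and both were above siControl. PPP1R15A (chr19:48872392-48876062) went from 37.5 and 35.4 FPKM to 49.6 and 54.0, a log2 fold change of 0.52 ± 0.057 (adjusted p = 2.8e-07). The other genes that rose were CEBPB (0.44), DDIT3 (0.37), TRIB3 (0.35), KLHL24, an adaptor of a ubiquitin ligase (0.33), GDF15 (0.25), SLC1A5 (0.18), SLC3A2 (0.17), XPOT (0.14) and MTHFD2 (0.13). Several of these calls depended on the setting: MTHFD2 passed in 3 of 13 alternatives (highest adjusted p 0.29), XPOT in 5 of 13 (0.50), KLHL24 in 6 of 12 (0.55), SLC3A2 in 9 of 13 (0.089), SLC1A5 in 11 of 13 (0.089) and GDF15 in 12 of 13 (0.077). ALDH1L2, at 0.105 and 0.184 FPKM with siControl and 0.271 and 0.199 with siLARP4A, had a log2 fold change of 0.73 ± 0.26 (adjusted p = 0.031) on 14 to 50 fragments, and it did not pass by limma, with PC3 fitted alone, without PC3 siControl replicate 1 or without PC3 siLARP4A replicate 1 (adjusted p from 0.099 to 0.37).

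Of the 7 enzymes of amino acid synthesis, 6 fell in PC3 with siLARP4A and none rose. PYCR1 fell by 0.42 and ALDH18A1 by 0.23, which are the proline enzymes. PSAT1 fell by 0.39, from 58.2 and 60.2 FPKM to 46.3 and 43.1. ASNS fell by 0.31, from 33.9 and 36.6 FPKM to 28.3 and 27.8, and PHGDH by 0.31, from 100 and 99.2 FPKM to 78.5 and 80.5. In these 3 genes every siLARP4A library lay below every siControl library, which their passing on the same libraries makes likely. PSPH fell by 0.30, and CTH was at -0.12 without passing. NUPR1 (chr16:28532708-28538974) went from 5.97 and 5.73 FPKM to 3.94 and 4.05, a log2 fold change of -0.53 ± 0.098 (adjusted p = 0.00018). SHMT2 fell by 0.44, SLC7A5 by 0.33, SLC7A1 by 0.32 and ATF5 by 0.31. The 13 genes that did not pass lay between -0.31 (VLDLR) and 0.18 (JDP2), and were, beside these and ATF4, CEBPG, DDIT4, EIF4EBP1, CHAC1, STC2, CTH, SLC1A4, SLC38A2, SLC6A9 and TUBE1.

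The difference between the lines in the effect of siLARP4A was tested directly, as the effect in PC3 minus the effect in MG63. The effect was lower in PC3 for 23 of the 38 genes and higher for 1, PPP1R15A, against 5.46% and 5.74% of all genes tested. The median difference over the 38 was -0.47 on the log2 scale, against 0.03 over all genes. PPP1R15A passed in 7 of 16 alternatives, DDIT4 in 12 of 16 and ALDH18A1 in 13 of 16. PPP1R15A did not pass without filtering, by the DESeq2 Wald test, with the deduplicated table, or without any 1 of PC3 siControl replicate 2, PC3 siLARP4A replicate 2, either MG63 siControl replicate or either MG63 siLARP4A replicate.

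The largest of these differences in the main fit was in CHAC1, at -2.28 ± 0.27 (adjusted p = 7.7e-06). It rests on 14 and 18 fragments in the MG63 siControl libraries and ran from -2.48 to -1.27 over the alternatives. CHAC1 was at 4.84 and 5.56 FPKM with siControl in PC3 and at 5.34 in both siLARP4A libraries, so the PC3 groups overlapped. GDF15 differed by -2.19 ± 0.32 (adjusted p = 9.4e-05), on 9 fragments in each MG63 siControl library, and ran from -2.45 to -0.96. The ASNS difference ran from -1.88 to -1.73, so the order of these genes depended on the setting. In PC3 GDF15 was already at 255 and 251 FPKM with siControl and reached 276 and 321 with siLARP4A. ASNS differed by -1.82 ± 0.10 (adjusted p = 3.4e-10), PSAT1 by -1.37 ± 0.082 (adjusted p = 4.4e-10) and SLC6A9 by -1.20 ± 0.12 (adjusted p = 1.1e-06). SLC6A9 in PC3 stood at 11.0 and 10.8 FPKM with siControl and 9.55 and 10.8 with siLARP4A.

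Opposite calls in the lines, lower in PC3 and higher in MG63, were made for NUPR1, ASNS, PHGDH, PSAT1, SLC7A5 and SLC7A1. Their differences were -0.89, -1.82, -1.06, -1.37, -0.89 and -0.58. SLC7A5 is an example at high level, with 101 and 101 FPKM with siControl and 78.7 and 80.1 with siLARP4A in PC3, against 211 and 209 and then 309 and 312 in MG63. Calls in the same direction in both lines were made for 12 genes higher, ATF3, CEBPB, PPP1R15A, TRIB3, SESN2, GDF15, MTHFD2, ALDH1L2, SLC7A11, SLC3A2, SLC1A5 and XPOT, and for ATF5 lower. Among these 12, SESN2, SLC7A11, TRIB3, SLC1A5, SLC3A2, MTHFD2 and GDF15 rose more in MG63 by the direct test. The least stable of their PC3 calls were MTHFD2 (3 of 13 alternatives), XPOT (5 of 13) and ALDH1L2 (8 of 12). The shares of all genes tested with like or opposite calls in the lines were not counted, so these numbers of members only describe them. For ATF4 the difference was -0.17 ± 0.068 and did not pass (adjusted p = 0.11), as for ATF3 (-0.24) and ATF5 (-0.03).

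**Figure D2:**
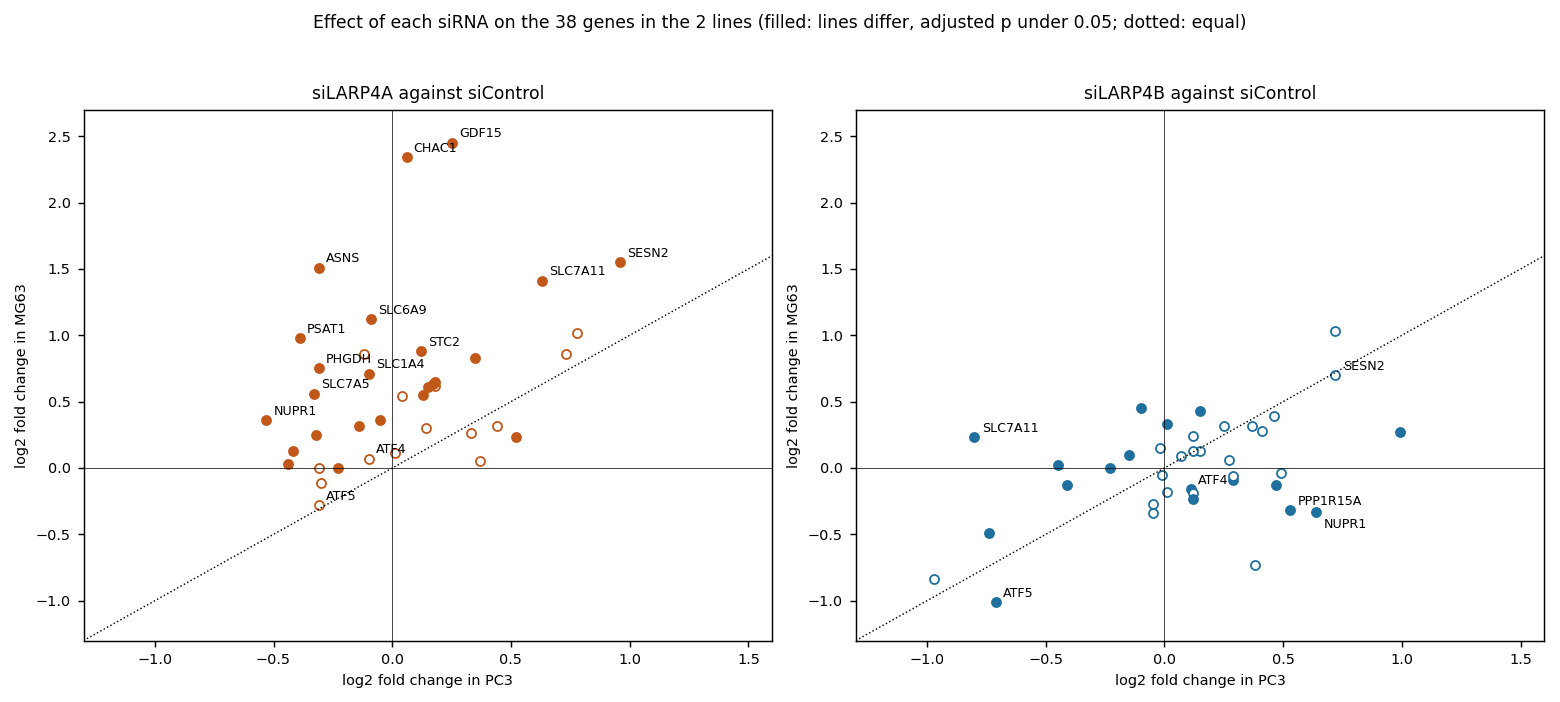
Log2 fold change against siControl in PC3 (x axis) and MG63 (y axis) of the 38 genes for siLARP4A and siLARP4B; filled points differ between the lines at an adjusted p of 0.05 and the dotted line marks equal effects. With siLARP4A 23 filled points lie above the dotted line and 1 below it, and with siLARP4B 9 lie above and 8 below.

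**Figure D3:**
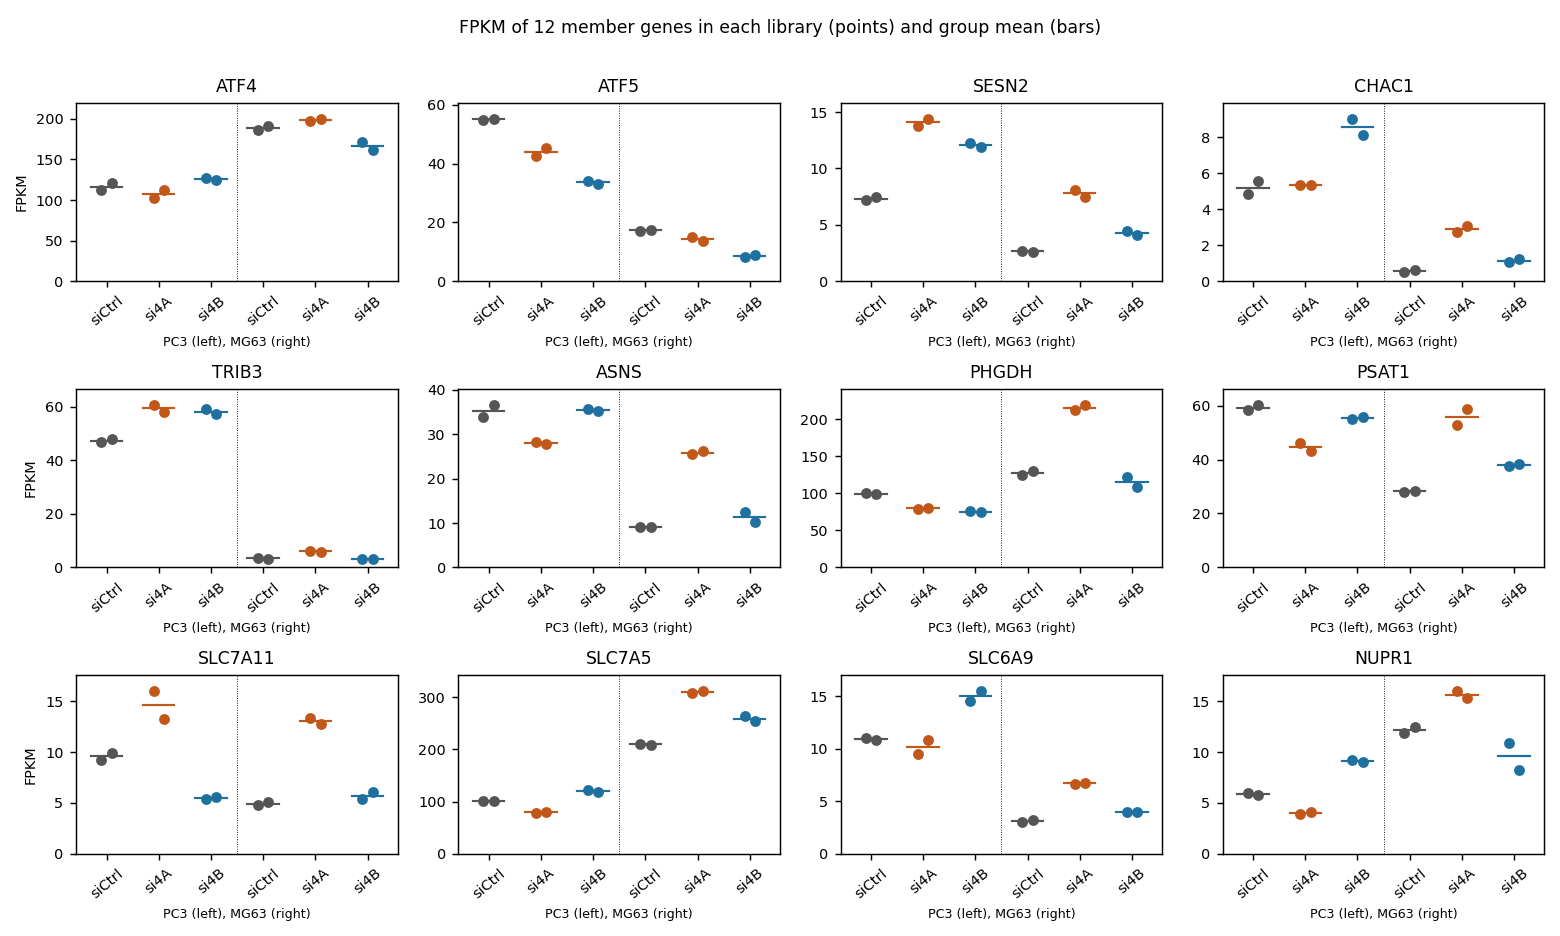
FPKM (y axis, from 0) of 12 member genes in each of the 12 libraries, with points for libraries and bars for group means, PC3 on the left and MG63 on the right of each panel. ASNS, PSAT1, PHGDH and SLC7A5 go down with siLARP4A in PC3 and up in MG63, SESN2 is above siControl with both siRNAs in both lines, and ATF5 is below it.

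The siLARP4B libraries were compared with the same siControl libraries, so these results share their controls with those of siLARP4A. In PC3 with siLARP4B, 5 of 8 transcription factors and 5 of 7 feedback and signalling genes were higher and 1 of each lower, and the strongest falls were in VLDLR, the carriers SLC7A11 and SLC7A1, and ATF5. Of the 38 genes, 17 passed higher and 8 lower, against 24.8% and 20.9% of all genes tested. In the alternatives other than leaving out a library, 13 to 15 passed higher, so none reached 17. The share of members lower was near that of all genes. The median log2 fold change of the 38 was 0.12, against 0.04.

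JDP2 (chr14:75428022-75474107) went from 0.642 and 0.664 FPKM with siControl to 1.31 and 1.29 with siLARP4B in PC3, a log2 fold change of 0.99 ± 0.15 (adjusted p = 9.9e-06). CHAC1 went from 4.84 and 5.56 FPKM to 9.03 and 8.15, a log2 fold change of 0.72 ± 0.13 (adjusted p = 6.3e-05). SESN2 reached 12.3 and 11.9 FPKM from 7.16 and 7.51, a log2 fold change of 0.72 ± 0.074 (adjusted p = 5.6e-08). In each of these genes both siLARP4B libraries were above both siControl libraries. The genes were named for passing on these same libraries, so this adds no support. NUPR1 rose from 5.97 and 5.73 FPKM to 9.23 and 9.03, a log2 fold change of 0.64 ± 0.091 (adjusted p = 5.3e-06), where siLARP4A lowered it. PPP1R15A (0.53), KLHL24 (0.49), DDIT3 (0.47), SLC6A9 (0.46), ATF3 (0.41), GDF15 (0.38), SLC3A2 (0.37), TRIB3 (0.29), CEBPG (0.27), SLC7A5 (0.25), PYCR1 (0.15), SLC38A2 (0.12) and ALDH18A1 (0.12) passed higher as well. The last 3 depended on the setting, with PYCR1 past the threshold in 3 of 13 alternatives (highest adjusted p 0.32), SLC38A2 in 2 of 13 (0.41) and ALDH18A1 in 2 of 13 (0.44), and KLHL24 passed in 11 of 12.

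The lipoprotein receptor VLDLR (chr9:2621787-2660056) fell from 1.72 and 1.98 FPKM to 0.923 and 0.967 in PC3 with siLARP4B, a log2 fold change of -0.97 ± 0.14 (adjusted p = 4.9e-06). SLC7A11 fell from 9.25 and 9.94 FPKM to 5.42 and 5.60, a log2 fold change of -0.80 ± 0.080 (adjusted p = 3.1e-08), where siLARP4A raised it. SLC7A1 (chr13:29509414-29595688) fell from 14.5 and 15.1 FPKM to 8.74 and 8.97, a log2 fold change of -0.74 ± 0.054 (adjusted p = 2.7e-10). ATF5 (chr19:49928702-49933936) fell from 54.8 and 55.2 FPKM to 34.2 and 33.0, a log2 fold change of -0.71 ± 0.058 (adjusted p = 1.6e-09). The siLARP4B libraries of all 4 genes lay below every siControl library, which their passing on the same libraries makes likely. ATF5 overlaps genes on both strands, so its fragments may be shared. The other genes lower were the glutamine carrier SLC1A5 (-0.45), PHGDH (-0.41), SHMT2 (-0.23) and EIF4EBP1 (-0.15, in 9 of 13 alternatives). ASNS, at 35.8 and 35.2 FPKM, and PSAT1, at 54.9 and 55.8 FPKM, had log2 fold changes of 0.01 and -0.10 and did not pass. The others of the 13 that did not pass were ATF4, CEBPB, DDIT4, STC2, PSPH, CTH, MTHFD2, ALDH1L2, SLC1A4, XPOT and TUBE1, with ALDH1L2 the highest at 0.29.

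In MG63 with siLARP4B the members went both ways, by small amounts for most. Of the 38 genes, 11 passed higher and 9 lower, against 18.0% and 16.9% of all genes tested, and the median was 0.01 against 0.00. Without MG63 siControl replicate 1, 7 passed higher. ATF5 fell the most, from 17.1 and 17.5 FPKM to 8.08 and 8.88, a log2 fold change of -1.01 ± 0.074 (adjusted p = 8.6e-10). CHAC1 went from 0.509 and 0.62 FPKM to 1.07 and 1.22, a log2 fold change of 1.03 ± 0.28 (adjusted p = 0.0061), on 14 to 35 fragments. Without MG63 siControl replicate 1 the CHAC1 value was 0.91 with an adjusted p of 0.059. SESN2 went from 2.68 and 2.63 FPKM to 4.44 and 4.09, a log2 fold change of 0.70 ± 0.098 (adjusted p = 8.6e-06), with both siLARP4B libraries above siControl.

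Smaller rises in MG63 with siLARP4B were made by PSAT1 (0.45), PYCR1 (0.43), SLC6A9 (0.39), ASNS (0.33), SLC7A5 (0.32), SLC3A2 (0.32), JDP2 (0.27), ALDH18A1 (0.24) and SLC7A11 (0.23), so 4 of the 7 enzymes of amino acid synthesis and 4 of the 8 carriers rose. The genes lower were SLC7A1 (-0.49), SLC1A4 (-0.34), NUPR1 (-0.33), PPP1R15A (-0.32), PSPH (-0.27), SLC38A2 (-0.23), CEBPB (-0.18) and ATF4 (-0.16), beside ATF5. Of the 20 calls, 10 held in every alternative and 10 did not. SLC7A11 and CEBPB passed in 7 of 12, JDP2 in 7 of 11, ATF4 in 9 of 12, PSPH in 10 of 12, CHAC1 in 10 of 11, and ASNS, SLC6A9, NUPR1 and SLC1A4 in 11 of 12. The feedback gene TRIB3 was at -0.09, DDIT3 at -0.13 and STC2 at -0.05, none past the threshold. Of the 18 genes that did not pass, VLDLR (-0.84) and GDF15 (-0.73) were lowest, on 17 and on 5 or 6 fragments per siLARP4B library, and ATF3 (0.28) was highest. The rest of the 18 were CEBPG, DDIT4, EIF4EBP1, KLHL24, PHGDH, CTH, SHMT2, MTHFD2, ALDH1L2, SLC1A5, XPOT and TUBE1.

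The effect of siLARP4B differed between the lines for 17 of the 38 genes, 8 higher in PC3 and 9 lower, against 12.4% and 14.4% of all genes tested. Among those that passed, SLC7A11 had the largest difference, -1.04 ± 0.12 (adjusted p = 8e-07), with -0.80 in PC3 and 0.23 in MG63. GDF15 was at 1.11 ± 0.53 and did not pass (adjusted p = 0.13). NUPR1 differed by 0.97 ± 0.12 (adjusted p = 4.6e-06) and PPP1R15A by 0.85 ± 0.086 (adjusted p = 2.2e-07), both higher in PC3 and lower in MG63. JDP2 differed by 0.72 ± 0.17 (adjusted p = 0.0029), DDIT3 by 0.60 ± 0.16 (adjusted p = 0.0072) and ATF4 by 0.26 ± 0.068 (adjusted p = 0.006). JDP2 did not pass by limma (adjusted p = 0.068). DDIT3 did not pass without MG63 siControl replicate 1 (adjusted p = 0.098) or MG63 siLARP4B replicate 1 (adjusted p = 0.063). ATF4 did not pass without MG63 siControl replicate 1, MG63 siControl replicate 2 or MG63 siLARP4B replicate 2 (adjusted p from 0.059 to 0.11). The number lower was 5 without PC3 siLARP4B replicate 2, and the number higher was 4 without MG63 siControl replicate 1 and 5 without MG63 siControl replicate 2. Over the 16 alternatives ATF5 (0.30) passed in 7, ASNS and TRIB3 in 10, and SHMT2 in 12.

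**Figure D4:**
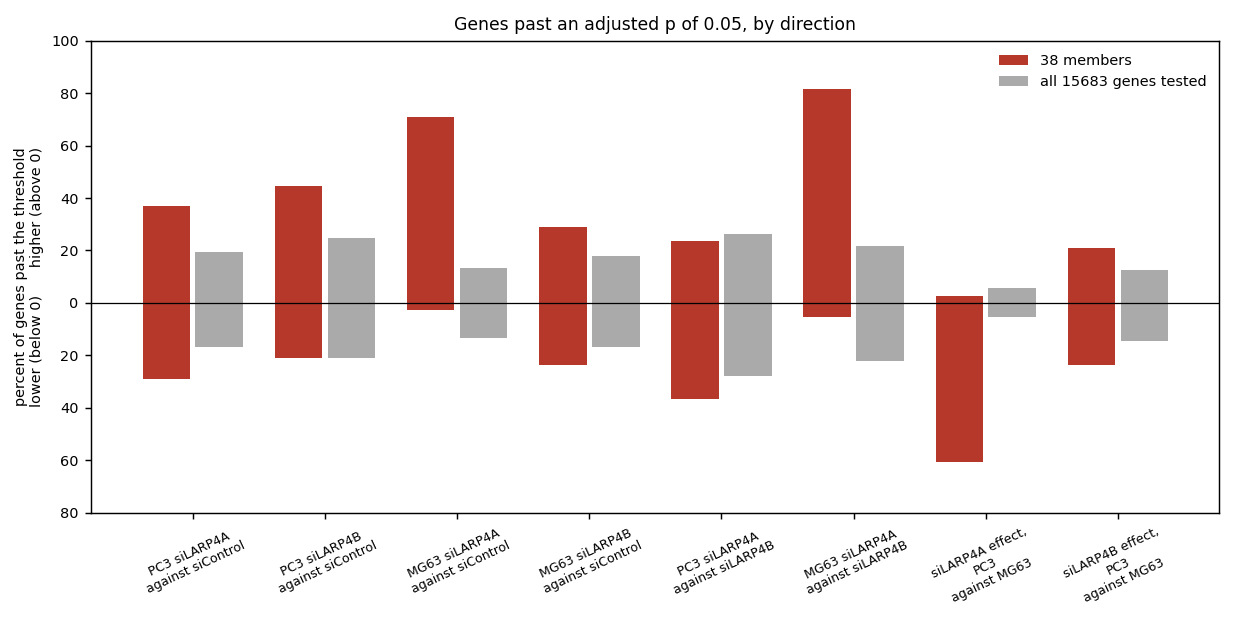
Percent of genes past an adjusted p of 0.05 (y axis, higher above 0 and lower below 0) among the 38 members and among all 15683 genes tested, in 8 comparisons. In MG63 with siLARP4A 71.1% of members are higher against 13.3% of all genes. The effect of siLARP4A is lower in PC3 than in MG63 for 60.5% of members against 5.46% of all genes. The members were chosen with earlier results of these data known, and no test of the list was made.

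The siRNAs were also compared with each other, without siControl. In MG63 more members passed higher than lower with siLARP4A relative to siLARP4B in every role, and 31 of 38 passed higher and 2, PYCR1 and ALDH18A1, lower, against 21.6% and 22.2% of all genes tested. Of the calls, VLDLR held in 6 of 11 alternatives and TUBE1 in 8 of 11. GDF15 differed most, at 3.18 ± 0.35 (adjusted p = 1.6e-07), with 2.58 and 1.89 FPKM with siLARP4A and 0.255 and 0.221 with siLARP4B, the latter on 6 and 5 fragments. CHAC1 followed at 1.31 ± 0.20 (adjusted p = 1.2e-05), SLC7A11 at 1.18 ± 0.078 (adjusted p = 7.4e-11) and ASNS at 1.17 ± 0.074 (adjusted p = 4.3e-11). SLC1A4, a neutral amino acid carrier, stood at 9.02 and 9.09 FPKM with siLARP4A and 4.15 and 4.53 with siLARP4B, a difference of 1.04 ± 0.082 (adjusted p = 1.2e-09). All 8 carriers and 7 of the 8 transcription factors passed higher, ATF4 among them at 0.23 ± 0.047 (adjusted p = 0.00044).

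In PC3 the order was mixed, with 9 of 38 higher with siLARP4A than with siLARP4B and 14 lower, against 26.3% and 27.8% of all genes tested. The share of members higher, 23.7%, was near that of all genes, and the share lower was 36.8%. SLC7A11 was higher with siLARP4A by 1.44 ± 0.077 (adjusted p = 1e-12), and VLDLR by 0.66 ± 0.14 (adjusted p = 0.00036). STC2 (0.12) passed in 6 of 12 alternatives. NUPR1 was lower by 1.17 ± 0.094 (adjusted p = 6.1e-10), JDP2 by 0.81 ± 0.14 (adjusted p = 3.9e-05) and CHAC1 by 0.67 ± 0.12 (adjusted p = 7.9e-05). Of the 7 enzymes of amino acid synthesis, 5 were lower with siLARP4A and none higher. ATF4 was lower with siLARP4A by 0.21 ± 0.048 (adjusted p = 0.00087).

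Under siControl alone most of these genes differed between the lines, as did most of all genes tested. With siControl, 22 of 38 (57.9%) were lower in MG63 than in PC3 and 12 (31.6%) higher, against 41.3% and 40.7% of all genes tested. GDF15 stood at 255 and 251 FPKM in PC3 and 0.414 and 0.393 in MG63, a log2 difference of -9.09 ± 0.13 (adjusted p = 3e-24). CTH stood at 4.64 and 5.35 against 0.106 and 0.125 FPKM (-5.21 ± 0.27, adjusted p = 2.9e-14), and TRIB3 at 46.7 and 47.9 against 3.47 and 3.26 FPKM (-3.63 ± 0.073, adjusted p = 9.8e-22). VLDLR, at 1.72 and 1.98 against 0.144 and 0.205 FPKM, had a log2 difference of -3.21 ± 0.19 (adjusted p = 3.5e-13). ALDH1L2, at 0.105 and 0.184 FPKM in PC3 and 5.09 and 4.95 in MG63, was higher by 5.29 ± 0.14 (adjusted p = 2.1e-19). ATF4 mRNA was itself 1.84-fold higher in MG63 (log2 difference 0.88 ± 0.048, adjusted p = 1.1e-13), while ATF3, DDIT3, CHAC1 and ASNS had log2 differences of -2.14, -1.59, -3.01 and -1.77. With siLARP4A in MG63, ASNS at 25.5 and 26.2 FPKM was below the PC3 siControl libraries, as was CHAC1 at 2.71 and 3.05, and PSAT1 at 52.8 and 58.6 overlapped the PC3 siControl values of 58.2 and 60.2.

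Other genes of the pathway were taken from lists, whose counts stand beside the shares of all genes tested: 19.5% higher and 16.9% lower with siLARP4A in PC3, 13.3% and 13.5% in MG63, 24.8% and 20.9% with siLARP4B in PC3, and 18.0% and 16.9% in MG63. Of the 20 cytosolic aminoacyl-tRNA synthetases, which charge tRNA and many of which ATF4 raises, 18 were tested, all but CARS1 and VARS1. With siLARP4A in MG63 10 rose and 1 fell, FARSB (-0.25 ± 0.054, adjusted p = 0.0016), and the highest was AARS1 (0.51 ± 0.052, adjusted p = 1.5e-07). In PC3 none rose and 4 fell, QARS1 the most (-0.18 ± 0.050, adjusted p = 0.0083). The effect of siLARP4A was lower in PC3 than in MG63 for 9 of the 18 and higher for 2, against 5.46% and 5.74% of all genes. WARS1 differed by -0.63 ± 0.070 (adjusted p = 3.6e-06) and SARS1 by -0.53 ± 0.065 (adjusted p = 1.1e-05). With siLARP4B 12 rose and none fell in MG63, led by NARS1 (0.42 ± 0.048, adjusted p = 6.6e-07), and 3 rose and 3 fell in PC3, from FARSB (-0.28) to QARS1 (0.51).

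Among 17 further ATF4 and CHOP targets, 16 were tested, all but FGF21. With siLARP4A 9 rose and none fell in MG63, and 8 rose and 1 fell in PC3, TNFRSF10B, a death receptor gene (-0.21). INHBE, an inhibin beta subunit gene, went from 0.202 and 0.17 FPKM to 1.30 and 1.12 in MG63 with siLARP4A, a log2 fold change of 2.68 ± 0.34 (adjusted p = 3.3e-06), and the effect differed from that in PC3 by -2.16 ± 0.62 (adjusted p = 0.025). BBC3, which encodes the cell death protein PUMA, was the highest in PC3 (0.68 ± 0.16, adjusted p = 0.0025). With siLARP4B 7 rose and 2 fell in PC3, from ATG16L1 (-0.27) to GABARAPL1 (0.62), and 4 rose and 3 fell in MG63, from SQSTM1 (-0.43) to MAP1LC3B (0.47).

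Of 21 other enzymes of amino acid and folate metabolism, 17 were tested. PCK2, the mitochondrial phosphoenolpyruvate carboxykinase, moved in the same directions as ASNS, with 7.57 and 7.74 FPKM with siControl and 5.17 and 5.03 with siLARP4A in PC3, and 4.76 and 3.70 and then 9.70 and 10.7 in MG63. Its effects were -0.57 ± 0.11 (adjusted p = 0.0003) and 1.27 ± 0.11 (adjusted p = 1.9e-08), and they differed by -1.84 ± 0.16 (adjusted p = 1.1e-07). With siLARP4A 5 of the 17 rose and 6 fell in MG63, and 2 rose and 6 fell in PC3, with ASS1, which makes argininosuccinate, the lowest in both (-0.56 and -0.83). With siLARP4B GLUL, glutamine synthetase, fell from 22.5 and 22.1 FPKM to 5.80 and 5.65 in PC3 (-1.96 ± 0.056, adjusted p = 1.1e-16), and by 0.98 in MG63. SHMT1, the cytosolic serine hydroxymethyltransferase, fell by 1.49 in PC3 and 1.16 in MG63. The highest of this list with siLARP4B were AMT in PC3 (1.16) and GCSH in MG63 (0.53). Of the 17 enzymes, 4 rose and 6 fell in PC3 with siLARP4B, and 6 rose and 5 fell in MG63.

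Upstream of ATF4, of 19 genes of the eIF2alpha kinases and the eIF2 pathway, 4 rose and 8 fell with siLARP4A in PC3, 3 rose and 5 fell in MG63, and with siLARP4B 3 rose and 6 fell in PC3 and 8 rose and 4 fell in MG63. With siLARP4A the shares higher, 21.1% in PC3 and 15.8% in MG63, were near those of all genes, and the shares lower were 42.1% and 26.3%. EIF2AK3, which encodes the kinase PERK, was the highest with siLARP4A in PC3 (0.44 ± 0.086, adjusted p = 0.00029) and MG63 (0.51 ± 0.089, adjusted p = 0.00016) and with siLARP4B in PC3 (0.40 ± 0.088, adjusted p = 0.00068), while in MG63 with siLARP4B it stood at 0.02. There EIF2AK2, which encodes the kinase PKR, was the highest (0.45 ± 0.071, adjusted p = 3.5e-05). OMA1, the mitochondrial protease that cleaves DELE1, was the lowest with siLARP4A in both lines (-0.81 in PC3, -0.62 in MG63). IMPACT, an inhibitor of the kinase GCN2, was the lowest with siLARP4B in both (-0.47 and -0.55).

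Of 14 tested among 17 other amino acid carriers, 2 rose and 4 fell with siLARP4A in PC3, and 2 rose and 3 fell in MG63. The shares higher, 14.3% in each line, were near or below those of all genes, and the shares lower were 28.6% in PC3 and 21.4% in MG63. SLC36A1 (0.55) was the highest and SLC1A1 and SLC6A6 (both -0.61) the lowest in PC3, and SLC38A7 (0.35) the highest and SLC1A3 (-0.55) the lowest in MG63. With siLARP4B 5 rose and 3 fell in PC3, from SLC36A4 (-0.48) to SLC7A2 (0.68), and 3 rose and 5 fell in MG63, from SLC7A8 (-0.58) to SLC7A2 (1.12). Of 19 genes of amino acid sensing by mTORC1, 4 rose and 5 fell with siLARP4A in PC3 and 1 rose and 2 fell in MG63, with EIF4EBP2, a translation inhibitor, the highest in both (0.61 and 0.53). With siLARP4B 8 rose and 2 fell in PC3, from RRAGD (-0.79) to SESN3 (1.05), and 3 rose and 5 fell in MG63, from RRAGD (-1.99) to CASTOR2 (0.63).

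Of 11 tested among 12 other ATF, CREB and C/EBP factors, 7 rose and 1 fell with siLARP4A in PC3, led by CEBPD (0.88 ± 0.18, adjusted p = 0.00047) with CREB3 lowest (-0.25), and 3 rose and none fell in MG63, led by ATF6 (0.39). With siLARP4B 2 rose and 4 fell in PC3, from ATF1 (-0.56) to CREM (0.61), and 2 rose and 3 fell in MG63, from ATF6 (-0.50) to CREM (0.94). Of 9 endoplasmic reticulum chaperone genes, 5 rose and none fell with siLARP4A in each line and with siLARP4B in MG63, and 3 rose and 2 fell with siLARP4B in PC3. DNAJB9 was the highest with siLARP4A (0.73 in PC3 and 0.52 in MG63). Of 8 NRF2 targets, 7 rose and none fell with siLARP4A in PC3, 5 rose and 1 fell with siLARP4A in MG63 and with siLARP4B in PC3, and 4 rose and 1 fell with siLARP4B in MG63. HMOX1, the haem oxygenase gene, was the highest with siLARP4B in both lines (2.08 in PC3 and 2.31 in MG63), with OSGIN1 the highest with siLARP4A (0.89 and 0.74).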

How the data were processed

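RNA sequencing gave 1 deposited table for each of 12 libraries. Per the file headers, each table holds for 86394 transcript models a fragment count and the FPKM value the authors made from it. FastQC, HISAT2, featureCounts, edgeR and build hg38 are named in the submitters' processing notes, without versions or roles. Strand handling is not given in the sources used here, so overlapping genes may share fragments: 9 members overlap a gene on the other strand (ATF5, DDIT3, CEBPB, VLDLR, SHMT2, MTHFD2, SLC7A11, SLC7A5 and SLC6A9) and 5 on the same strand (ATF5, DDIT3, GDF15, ASNS and SLC7A5). The deposited fragment counts are whole numbers and the deposited FPKM values are scaled for the length of each model and the library total. In 3 tables an unnamed further column was not used.

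Of the symbols, 1814 mapped to several loci and were dropped, and each gene was represented by its most covered model. The test was edgeR 4.0.16 under R 4.3.3 (quasi-likelihood F-test, TMM, default expression filter, all 12 libraries, 1 mean per group), two-sided, with Benjamini-Hochberg adjustment over all 15683 genes tested within each of 9 comparisons and a threshold of 0.05. The SE is the log2 fold change divided by the square root of F. FPKM values are given per library. Replicates of a group differed over 33 members by a median of 0.033 to 0.096 on the log2 scale. The p-values measure the spread between these replicates, which is borrowed largely from other genes. The code was tested on simulated data.

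The members and lists were chosen with earlier results of these data known. By rule, ATF4 is always given in full, with up to 8 members per siRNA against siControl that passed with a log2 fold change of at least 0.5 in size, and the 5 largest of each other comparison. Of each list the highest and lowest past the threshold and up to 3 others are named. Genes named for passing tend to have groups that lie apart, so such statements add no support. The share of all genes with groups apart was not counted. Alternatives were DESeq2 1.42.0 size factors and Wald test, no filter, a mean FPKM of at least 5, limma 3.58.1 on log2(FPKM + 1), a replicate block, 1 line alone, the longest model, the deduplicated table of PC3 siControl replicate 2, and leaving out each library. Promoter windows are from RefSeq, matched by symbol for 31 of 38 members.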

Additional observations from a re-analysis of the deposited data

Results flagged for a closer look

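Each value here is a log2 difference between the effect of 1 siRNA in PC3 and its effect in MG63 that passed an adjusted p of 0.05 in edgeR's interaction test, and negative values mean a lower effect in PC3. For siLARP4A the amino acid genes were ASNS (-1.82), PSAT1 (-1.37), PHGDH (-1.06), PYCR1 (-0.55), SHMT2 (-0.47), MTHFD2 (-0.41) and ALDH18A1 (-0.23). The carriers were SLC6A9 (-1.20), SLC7A5 (-0.89), SLC1A4 (-0.81), SLC7A11 (-0.78), SLC7A1 (-0.58), SLC1A5 (-0.47) and SLC3A2 (-0.46). The feedback, secreted and transcription genes were CHAC1 (-2.28), GDF15 (-2.19), NUPR1 (-0.89), STC2 (-0.76), SESN2 (-0.59), TRIB3 (-0.48), DDIT4 (-0.46), EIF4EBP1 (-0.46), CEBPG (-0.42) and PPP1R15A (0.29). From the lists, INHBE (-2.16) and PCK2 (-1.84) were picked out and differed in the same direction as ASNS. INHBE was at 0.204 and 0.149 FPKM with siControl in PC3. In the list of each, 2 genes were lower in PC3 and 1 higher, of 16 and of 17 tested. Of all genes tested 5.46% were lower and 5.74% higher. In other lists CEBPD (1.14) and SLC1A3 (0.73) differed the other way.

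For siLARP4B the effect was lower in PC3 for SLC7A11 (-1.04), PSAT1 (-0.55), SLC1A5 (-0.48), ASNS (-0.32), PHGDH (-0.28), PYCR1 (-0.28), EIF4EBP1 (-0.26), SLC7A1 (-0.26) and SHMT2 (-0.24). It was higher in PC3 for NUPR1 (0.97), PPP1R15A (0.85), JDP2 (0.72), DDIT3 (0.60), TRIB3 (0.38), SLC38A2 (0.35), ATF5 (0.30) and ATF4 (0.26). Over the 16 alternatives the siLARP4B differences passed in 7 for ATF5, 10 for TRIB3, 10 for ASNS and 12 for SHMT2, and the siLARP4A difference of PPP1R15A in 7.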

How the results depend on the processing

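Of the 229 calls made for members over the 9 comparisons, 186 held in every alternative and 43 were lost in at least 1. Held in fewer alternatives than not were 7 calls, MTHFD2 and XPOT with siLARP4A in PC3, PYCR1, ALDH18A1 and SLC38A2 with siLARP4B in PC3, and the line differences of PPP1R15A for siLARP4A and of ATF5 for siLARP4B. For the 59 values given in full, chosen mostly for their size, 738 of 757 alternatives kept direction and side of the threshold, 14 lost a call, 5 gained one and 0 reversed. The members higher in PC3 with siLARP4A numbered 9 by limma, 9 with 1 line alone and 9 with the deduplicated table, against 14. Those higher in PC3 with siLARP4B numbered 13 to 15 in the alternatives other than leaving out a library, against 17. The members with a higher effect of siLARP4A in PC3 numbered 0 without a filter, 0 by the DESeq2 Wald test and 0 with the deduplicated table, against 1. Leaving out 1 library gave 0 to 1 for that count, 0 to 1 members lower in MG63 with siLARP4A, 7 to 12 higher in MG63 with siLARP4B, and for the effect of siLARP4B 5 to 9 lower and 4 to 8 higher in PC3. With leave-one-out fits that leave a group with 1 library, that library is assumed to vary like the other groups. Samples were not paired by replicate number in the main fit. Deviations of same-numbered libraries over all genes tested correlated at -0.069 to 0.065. Sampling noise in each gene weakens such a correlation, so it cannot show that these libraries were handled separately. A fit with a replicate block gave 13 higher and 11 lower in PC3 with siLARP4A and 27 higher and 1 lower in MG63, and changed no count of members by over 1.5 times. Members under the mean FPKM of 5 have no value under that filter. Depth limits CHAC1, GDF15, VLDLR and CTH in MG63 and ALDH1L2 in PC3. With 2 libraries per group, small changes that missed the threshold are not shown to be absent.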
